A study of Drosophila melanogaster with 3 samples.

Results

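The regions described are the 7089 peaks that rank immediately below the reproducible set in a ChIP-seq map of CG44002-eGFP, out of 30000 peaks called on the pooled replicates. They were chosen by the signal value that the authors gave each peak: the pooled dm6 list was ordered from the highest signal down, and ranks 7090 to 14178 were taken. The 7089 rows above them are the list that passed a threshold on the irreproducible discovery rate (IDR). IDR scores how well the ranks of peaks hold up across replicates. These rows are exactly those of highest pooled signal, so the edge between them and the members is a cut on pooled signal. Not every IDR row was strong in each replicate: 41 lay inside an upper 7089 peak of no replicate, and 679 inside one of 1 replicate only. The next 7089 rows, ranks 14179 to 21267, served as the comparison on the other side. Whole prepupae of mixed sex and unknown age were used, from the fly strain labelled CG34406-GFP, which carries CG44002 with eGFP at its C-terminal end. The labels do not use 1 name throughout: the tagged gene is given as CG44002, while the strain and the antibody field carry CG34406, which the RefSeq gene table lists as a synonym of both CG44002 and the pseudogene CR44003. Chromatin sheared by sonication to between 200 and 800 bp was precipitated with an antibody against GFP in 3 biological replicates, which form 1 group. The labels name neither the promoter nor the number of insertions of the transgene, and the control file named for each list was not analysed here.

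A peak list is ordered evidence rather than a set of on and off sites. Sites held weakly, or held in few cells of a whole animal, give low signal and mix in the lower ranks with background, and a reproducibility threshold cuts through that gradient. Open promoters and enhancers are where most transcription factors of the fly are found, while coding exons are seldom occupied. In whole prepupae a site held strongly in few cells and one held weakly in many cannot be told apart.

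Because signal chose the members, their signals are a description. Signal fell from 84.9 at rank 7090 to 41.9 at rank 14178, with a median of 56.7, in the authors' unit, whose scale is not stated. There was no step at either edge. Rank 7089 had 84.862 and rank 7090 had 84.8565, while rank 14178 had 41.8681 and rank 14179 had 41.862. The authors' −log10 q-value ran from 4.18 to 1.33 over the members, so each had a q-value under 0.05, and 4275 of them (60.3%) had one under 0.01. Nearly all members, 7047, were 430 bp wide, and together they covered 2.97 Mb.

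Sequences are shown for members of 2 kinds that the replicates separated. The first 8 lay in the 7089 highest-signal peaks of all 3 replicates and were picked by class or by a consensus string. The last 4 lay over 1000 bp from any IDR summit and had a replicate summit of their own within 100 bp, ranked in the upper 14178, in each replicate. These last 4 were chosen after values were seen. Each run is 200 bases of the plus strand of dm6, from the RefSeq release 6 genome, centred on the summit, and capitals mark any of the 9 strings that were more frequent at member summits than beside them, such as TATAAA, a run of A, the DRE (TATCGATA) and GAGAGAG.
CG5535 (promoter, chr3L:17857148-17857347, plus strand): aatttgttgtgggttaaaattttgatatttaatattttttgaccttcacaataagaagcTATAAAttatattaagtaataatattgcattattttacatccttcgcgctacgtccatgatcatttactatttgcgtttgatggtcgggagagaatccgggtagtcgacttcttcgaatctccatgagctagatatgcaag
Atf3 (promoter, chrX:1275565-1275764, plus strand): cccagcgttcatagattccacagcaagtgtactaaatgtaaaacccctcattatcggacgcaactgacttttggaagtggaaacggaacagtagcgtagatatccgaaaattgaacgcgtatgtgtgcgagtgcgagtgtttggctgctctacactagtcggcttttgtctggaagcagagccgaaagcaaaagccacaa
tara (intron, chr3R:16238210-16238409, plus strand): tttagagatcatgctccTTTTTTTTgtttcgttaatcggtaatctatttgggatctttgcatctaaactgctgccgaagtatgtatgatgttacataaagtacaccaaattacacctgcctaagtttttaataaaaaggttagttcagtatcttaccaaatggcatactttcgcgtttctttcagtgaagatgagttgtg
CG13293 (intron, chr3L:6085418-6085617, plus strand): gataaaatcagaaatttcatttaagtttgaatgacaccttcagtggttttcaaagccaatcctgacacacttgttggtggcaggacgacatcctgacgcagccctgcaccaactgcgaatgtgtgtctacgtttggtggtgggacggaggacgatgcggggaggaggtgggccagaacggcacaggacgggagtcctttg
Mnr (intergenic, chrX:21281715-21281914, plus strand): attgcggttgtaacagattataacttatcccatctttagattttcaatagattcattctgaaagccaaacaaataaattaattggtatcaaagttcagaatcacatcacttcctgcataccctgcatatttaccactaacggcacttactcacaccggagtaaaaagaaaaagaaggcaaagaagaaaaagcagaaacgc
tRNA:Ile-TAT-1-2 (intergenic, chr3L:776456-776655, plus strand): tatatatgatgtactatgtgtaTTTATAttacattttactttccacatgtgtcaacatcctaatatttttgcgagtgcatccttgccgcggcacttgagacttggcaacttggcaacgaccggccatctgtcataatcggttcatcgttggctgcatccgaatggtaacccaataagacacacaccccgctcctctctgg
pxb (intron, DRE, chr3R:15676523-15676722, plus strand): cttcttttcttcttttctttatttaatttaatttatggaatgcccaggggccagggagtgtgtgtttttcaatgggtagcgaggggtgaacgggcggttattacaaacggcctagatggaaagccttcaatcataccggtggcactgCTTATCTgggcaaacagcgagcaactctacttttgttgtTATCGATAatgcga
alt (intron, GAGA, chr3R:17681131-17681330, plus strand): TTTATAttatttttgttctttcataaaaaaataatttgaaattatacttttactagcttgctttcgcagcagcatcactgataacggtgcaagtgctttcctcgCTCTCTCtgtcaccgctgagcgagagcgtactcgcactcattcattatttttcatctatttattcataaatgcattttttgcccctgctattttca
lncRNA:CR43995 (promoter, chr3L:22072011-22072210, plus strand): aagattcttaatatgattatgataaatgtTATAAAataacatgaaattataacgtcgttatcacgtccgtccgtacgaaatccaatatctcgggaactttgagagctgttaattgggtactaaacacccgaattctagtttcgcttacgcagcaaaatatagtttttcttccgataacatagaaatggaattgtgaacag
lncRNA:CR44151 (promoter, chr2L:16629275-16629474, plus strand): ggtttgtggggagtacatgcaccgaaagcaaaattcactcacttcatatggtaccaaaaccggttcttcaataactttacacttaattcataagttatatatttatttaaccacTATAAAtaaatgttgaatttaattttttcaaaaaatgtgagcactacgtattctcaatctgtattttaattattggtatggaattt
anchor (intron, chr3L:17625879-17626078, plus strand): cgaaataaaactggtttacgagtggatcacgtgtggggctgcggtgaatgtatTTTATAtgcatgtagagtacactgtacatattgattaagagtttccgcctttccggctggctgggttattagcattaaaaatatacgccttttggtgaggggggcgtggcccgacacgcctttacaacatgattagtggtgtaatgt
Eip93F (intergenic, chr3R:21935359-21935558, plus strand): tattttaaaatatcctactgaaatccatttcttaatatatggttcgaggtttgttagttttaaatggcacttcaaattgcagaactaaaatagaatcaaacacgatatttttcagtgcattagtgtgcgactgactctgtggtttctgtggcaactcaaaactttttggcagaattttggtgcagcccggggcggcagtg
Most of the first 8 windows held few of the strings sought, and Atf3, CG13293 and Mnr held none of the 9. The pxb window carried a DRE and a GATA string (AGATAAG), and the alt window carried TATAAA and GAGAGAG. In 3 of the last 4 windows a TATAAA or its reverse complement was present. A string in a window is a description of its letters and not an occupied site.

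Replicates supported the members unevenly, and few members were strong in all of them. A member summit lay inside one of the 7089 highest-signal peaks of replicate 1 in 913 cases (12.9%), of replicate 2 in 985 (13.9%) and of replicate 3 in 1203 (17.0%), a mean of 14.6% ± 2.13 (SD, n = 3). The same measure was 85.6% ± 2.49 for the IDR list and 3.07% ± 0.488 for the rank band below. Only 135 members (1.90%, 95% exact binomial interval 1.60% to 2.25%) were held by all 3 replicates, 439 by 2, 1818 by 1 and 4697 by none. The pooled list was made from these replicates, so this support is a description of how they contributed, not independent evidence.

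**Figure D1:**
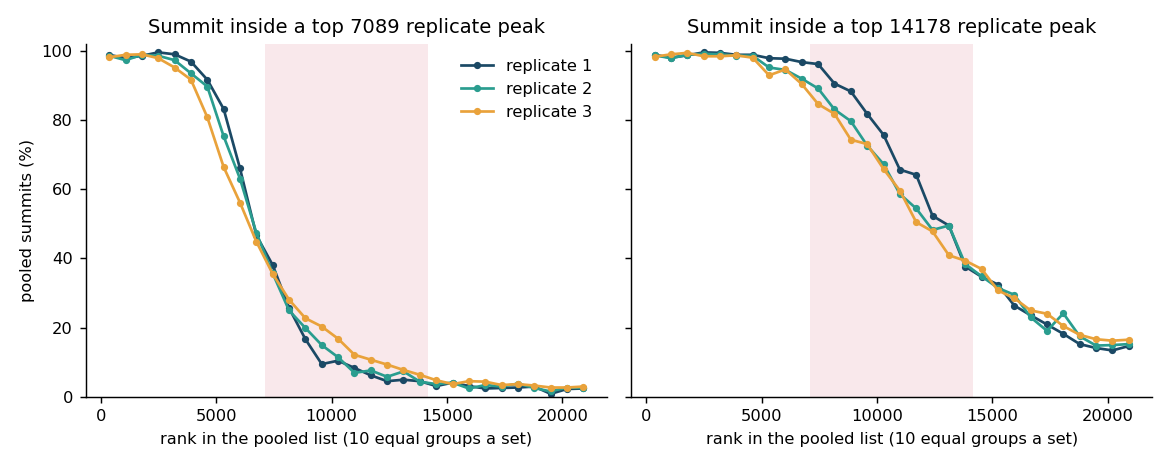
Percentage of pooled summits inside one of the 7089 (left) or 14178 (right) highest-signal peaks of each replicate, plotted against rank in the pooled list; each set is cut into 10 rank groups of equal size, 1 point each, and the shaded ranks are the members. In the left panel rank group 1 of the members had 38.1%, 35.7% and 35.5% in replicates 1, 2 and 3 and rank group 10 had 4.51%, 4.37% and 6.35%.

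Replicate lists held most members at lower ranks. Against the 14178 highest-signal peaks of each replicate the shares were 70.2%, 64.1% and 61.8%, and 1940 members (27.4%) were held by all 3 replicates. Against the whole replicate lists of 30000 peaks they were 94.8%, 86.8% and 89.0%, with 5163 members (72.8%) held by all 3 and 11 by none. The median replicate rank of the members held was 10954 in replicate 1, 10620 in replicate 2 and 11020 in replicate 3. These medians lay inside the pooled ranks of the members, but the upper quartiles of 14328, 14448.5 and 15358 lay beyond the last of them. The replicate ranks are those of the best peak covering a summit, and leave out 372, 938 and 780 members not held. The plot of support by rank shows no break at the IDR edge. Cut into 10 rank groups, the lowest group of the IDR list, with 46.7%, 47.4% and 44.9% in the 7089 highest-signal peaks of the 3 replicates, was closer to the highest group of the members than to the top of its own list.

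Members held in the upper 7089 of all 3 replicates nearly all lay beside a stronger peak. Members so placed are called shoulders below, for their position only. Of the 135 held in the upper 7089 of all 3 replicates, 130 (96.3%) lay within 1000 bp of an IDR summit and 129 within 430 bp, the width of a peak. Over all members 765 (10.8%) lay within 430 bp, and 709 of these were between 150 and 250 bp away. No member was nearer than 150 bp, and few were between 250 and 550 bp. IDR summits were spaced alike, with no other IDR summit nearer than 150 bp and 10.2% of them 200 to 250 bp from one. Within 1000 bp of an IDR summit lay 1607 members (22.7%), against 28.6% of IDR summits, counting other IDR summits (Fisher's exact adjusted p = 1.44e-15), and 16.0% of the rank band below (Fisher's exact adjusted p = 2.95e-23). Among summits held in the upper 14178 of both other replicates, the difference from the IDR list was 1.42, -1.25 and -0.826 percentage points without replicates 1, 2 and 3, none of which passed, and that from the rank band below turned to -26.9, -27.2 and -24.4. The share near an IDR summit rose with the number of replicates that held the member, from 13.5% with none to 29.3% with 1, 70.6% with 2 and 96.3% with 3.

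**Figure D2:**
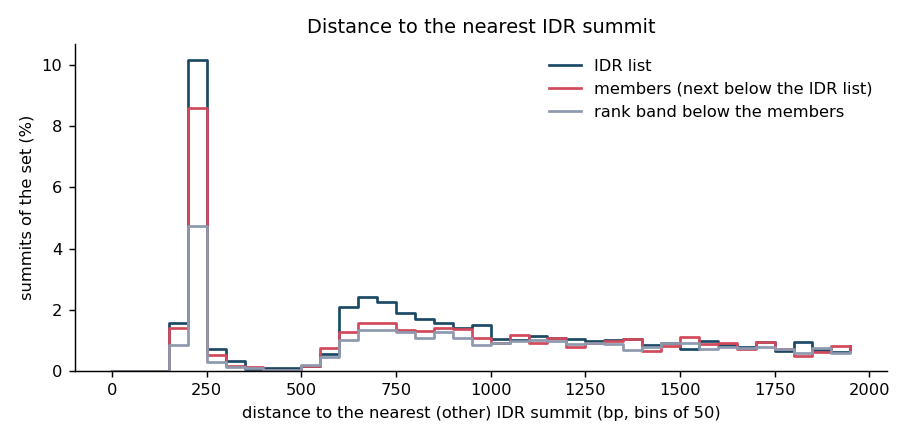
Distance from each summit to the nearest IDR summit other than itself, in bins of 50 bp, as a percentage of the summits in each set; lines show the IDR list, the members and the rank band below. In the bin from 200 to 250 bp the IDR list has 10.2% of its summits, the members have 8.59% and the rank band below has 4.73%.

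Many of these shoulders shared the replicate peak of their neighbour. In 69 of the 135 (51.1%) the replicate peak that held the member also held an IDR summit in all 3 replicates, against 103 of all 7089 members (1.45%). When support was counted only as a replicate summit within 100 bp of the member, the mean over replicates was 9.79% and 8 members were supported by all 3. With the 765 members within one peak width of an IDR summit left out, a measure added after seeing the data, mean support inside the upper 7089 was 10.2%. Among the 5482 members over 1000 bp from any IDR summit (77.3%), support was 9.48% ± 2.04 (SD, n = 3), and 5 were held by all 3 replicates.

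The named promoter members of this kind illustrate the pattern. The summit 454 bp upstream of CG5535 (dm6 chr3L, peak 17857033 to 17857462) ranked 7106 in the pooled list and lay in replicate peaks ranked 4105, 4654 and 2059. It was 201 bp from an IDR summit, and in none of the replicates was there a summit of its own within 100 bp. At Atpalpha, the catalytic subunit of the sodium pump, the member 98 bp upstream of the start on 3R lay in replicate peaks ranked 2939, 3242 and 1281, and 208 bp from an IDR summit, with no summit of its own in replicate 3. At Atf3, a bZIP transcription factor on X, the member 381 bp upstream of the start lay in replicate peaks ranked 1193, 1699 and 1646, and 205 bp from an IDR summit. The ranks printed are those of the best replicate peaks that cover the member summit; at Atpalpha those of replicates 1 and 2 also had their own summit within 100 bp of it, while at CG5535 none did.

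Others of the 12 promoter members named by rank had the same distance. They were tRNA:Ser-AGA-2-4, CG42637, the myoblast fusion gene mbc, the katanin subunit kat80, CG13643, fsd, the insulator protein gene BEAF-32 and the Golgi protein gene sau, at 199 to 207 bp from an IDR summit. CG2201 was the exception. Its member, 28 bp upstream of the start on 2L (21623893 to 21624322), lay 58000 bp from an IDR summit and ranked 6248, 6625 and 5928 in the replicates, with signals of 41.2, 29.6 and 31.1. The nearest replicate summit within 100 bp ranked 6248 in replicate 1 but 19731 in replicate 2 and 11870 in replicate 3.

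The intron and intergenic members named by rank were alike. In introns, the members in Egfr, the receptor for epidermal growth factor, CG13293, the histone demethylase gene Kdm4B and the Wingless coreceptor gene arr lay 199 to 209 bp from an IDR summit, while that in tara lay 1323 bp away and ranked 6338, 5660 and 6134 in the replicates. In intergenic DNA, the members nearest to the starts of Mnr, tRNA:Ile-TAT-1-2, lncRNA:CR43785, CG8170 and lncRNA:CR45568 lay 203 to 212 bp away. Of the 22 members named by these ranks, 20 were within one peak width of an IDR summit.

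Members clear of IDR summits with their own replicate summits were looked at after these values were seen, and carry no test. There were 924 of them with a summit within 100 bp in the upper 14178 of all 3 replicates, of which 220 were promoters, 456 introns and 223 intergenic. At Rab7, a GTPase of late endosomes, the member 38 bp downstream of the start on 3R (23992831 to 23993260) had replicate ranks of 6180, 5618 and 10885 and signals of 41.6, 34.7 and 19.0. At cdi, a kinase gene, the member 127 bp downstream of the start had ranks of 7993, 6212 and 7984 and signals of 33.1, 31.4 and 24.5. At 5-HT2B, a serotonin receptor gene, the member 372 bp upstream of the start had ranks of 7470, 10232 and 9412 and signals of 35.2, 18.9 and 21.4. The replicates differed in the order they gave these 3 members, and none ranked all of them lowest.

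The remaining promoter members of this set also varied between replicates. The member 416 bp downstream of Pak, a p21-activated kinase, ranked 9958, 12469 and 4740, and that 251 bp downstream of the RNA-binding protein gene Rox8 ranked 7041, 12348 and 5385. The member 13655 bp upstream of Eip93F, an ecdysone-induced transcription factor gene, was intergenic on 3R (21935244 to 21935673), 1856 bp from an IDR summit, and ranked 11764, 6381 and 5829 in the replicates. The intron member in anchor, the highest of all members at rank 7090, ranked 12219, 9544 and 5956.

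Member summits were less concentrated in promoters than IDR summits and more than the rows below. A promoter here was 500 bp either side of an annotated start, and held 2099 members (29.6%, 95% exact binomial interval 28.5% to 30.7%), against 36.2% of IDR summits (Fisher's exact test, two-sided, adjusted p = 3.31e-16) and 21.5% of the rank band below (adjusted p = 1.21e-27). Promoter windows make up 13.6% of the bases on the 6 arms. In the replicates' own lists the share in ranks 7090 to 14178 was 31.1% ± 2.68 (SD, n = 3) and in the upper 7089 it was 38.0% ± 0.734, with differences of -5.56, -9.32 and -6.07 points in replicates 1, 2 and 3. Neighbouring peaks are not replicates, so the p-values cover the counting of summits, and a paired exact permutation over 3 replicates cannot go below 0.25.

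**Figure D3:**
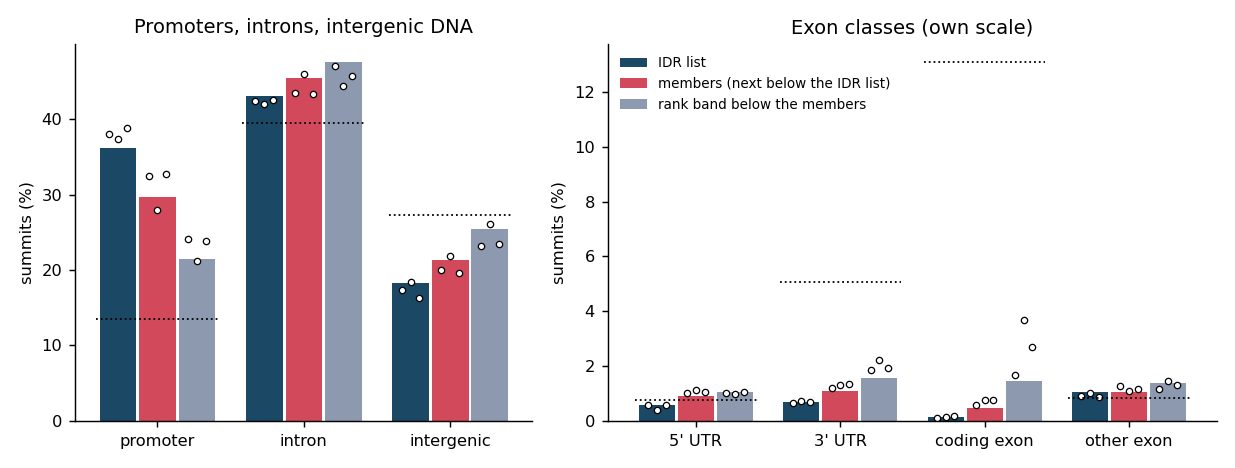
Percentage of summits in 7 genome classes for the IDR list, the members and the rank band below (bars), with each replicate's own ranked list as open points and the share of genome bases as dotted lines; the exon classes have their own scale. Promoter share steps down from 36.2% to 29.6% to 21.5%, while intergenic share steps up from 18.3% to 21.4% to 25.4%.

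Introns held 3224 members (45.5%), against 43.0% of IDR summits (Fisher's exact adjusted p = 0.00505) and 47.6% of the rank band below (adjusted p = 0.0172). Intergenic DNA held 1514 (21.4%), against 18.3% of IDR summits (Fisher's exact adjusted p = 1.20e-05) and 25.4% of the rank band below (adjusted p = 2.14e-08). With a promoter window of 200 bp the intron share passed against neither set (Fisher's exact adjusted p = 0.920 and 0.170), and the intergenic share did not pass against the IDR list (adjusted p = 0.0700). Both shares were higher in the lower band in 3 of 3 replicates' own lists. Coding exons held 33 members (0.466%), against 9 IDR summits (0.127%, Fisher's exact adjusted p = 0.00045) and 103 of the rows below (1.45%, adjusted p = 2.92e-09), where 13.1% of bases are coding exon. The 5′ UTRs held 65 members (0.917%, Fisher's exact adjusted p = 0.0283) and the 3′ UTRs 78 (1.10%, adjusted p = 0.0169), both above the IDR list, and other exons held 76 members and 76 IDR summits.

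Several of these class differences changed once support from replicates was required. When only summits inside a peak of the upper 14178 of both other replicates were kept, 2711, 3043 and 3217 members were left without replicates 1, 2 and 3. The promoter share stayed below the IDR list, with differences of -7.53, -3.23 and -8.86 percentage points. The difference from the rank band below was -1.40, -1.43 and -2.09 percentage points, and none passed (Fisher's exact adjusted p = 0.782, 0.626 and 0.633). Of that band 332, 372 and 377 rows were left. Of these rows 56.3%, 54.0% and 51.5% lay within 1000 bp of an IDR summit, against 16.0% of the whole band. The coding exon excess over the IDR list did not pass without replicate 1, 2 or 3 (Fisher's exact adjusted p = 0.269, 0.626 and 0.179), nor did the deficit against the rank band below (-0.00611, -0.609 and -0.220 points), and the intron and intergenic differences from the IDR list did not pass without replicate 2 (adjusted p = 0.317 and 0.313).

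Promoter members sat closer to the start than IDR summits. Their median position was -40 bp, where negative is upstream, with quartiles of -181 and 69 bp, against a median of -127 bp for the IDR list and -29 bp for the rank band below. In the replicates' own ranks 7090 to 14178 the medians were -41, -69 and -19 bp, against -117, -131 and -103 bp in their upper 7089. Of the promoter members off the start base itself, 1287 (61.5%) lay upstream, against 78.5% of IDR summits (Fisher's exact adjusted p = 8.85e-36), and the share was lower in 3 of 3 replicates. Without replicate 3 the difference from the IDR list was -9.68 points, against -17.0 with all. The upstream share was higher than the 56.5% of the rank band below (Fisher's exact adjusted p = 0.00499), a difference that did not pass without any 1 replicate and turned to -2.07 points without replicate 3.

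**Figure D4:**
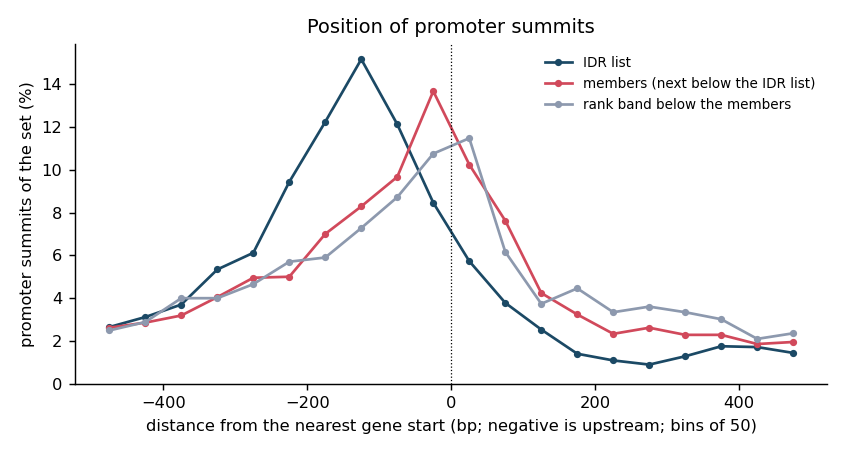
Position of promoter summits relative to the nearest gene start, in bins of 50 bp, as a percentage of each set's promoter summits; negative is upstream. The bin just upstream of the start holds 13.7% of the members' promoter summits, while the IDR list peaks further upstream.

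Divergent promoters, where another gene starts on the opposite strand within 1000 bp upstream, held 601 promoter members (28.6%), against 37.9% for the IDR list (Fisher's exact adjusted p = 7.15e-11) and 21.1% for the rank band below (adjusted p = 5.45e-07). The share was lower than in the upper ranks in 3 of 3 replicates. Away from divergent promoters the shift toward the start was still seen, with a median of -63 bp in 1498 members against -172 bp in the IDR list. Against the rank band below, the divergent difference was -3.14, -2.23 and -3.01 points without replicates 1, 2 and 3. None of these passed (Fisher's exact adjusted p = 0.782, 0.626 and 0.633). Few rows of that band were left, as above, and most of them lay within 1000 bp of an IDR summit. Members within 430 bp of an IDR summit were divergent in 40.4% of their promoters, and those over 1000 bp away in 26.5%.

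Member summits were AT-rich, though less so than IDR summits. Mean A+T in the 100 bp around the summit was 62.3%, against 67.8% in the IDR list, 59.4% in the rank band below and 57.7% over the 6 arms. The 500 bp flanks of the members stood at 57.3% and 57.9%, so the excess was local to the summit. Windows with at least 70% A+T made up 1945 members (27.4%), against 48.6% of IDR summits (Fisher's exact adjusted p = 4.80e-148) and 18.7% of the rows below (adjusted p = 1.63e-34). In the replicates' own lists the share was 24.7% ± 2.90 (SD, n = 3) in the lower band and 46.1% ± 3.25 above it, lower in 3 of 3, and the differences kept their direction and passed under every alternative run. Their size did not hold: the difference from the rank band below was 8.77 points over all rows and 18.2, 16.5 and 19.3 points without replicates 1, 2 and 3, where 11.7%, 9.68% and 13.3% of the band rows left were AT-rich.

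**Figure D5:**
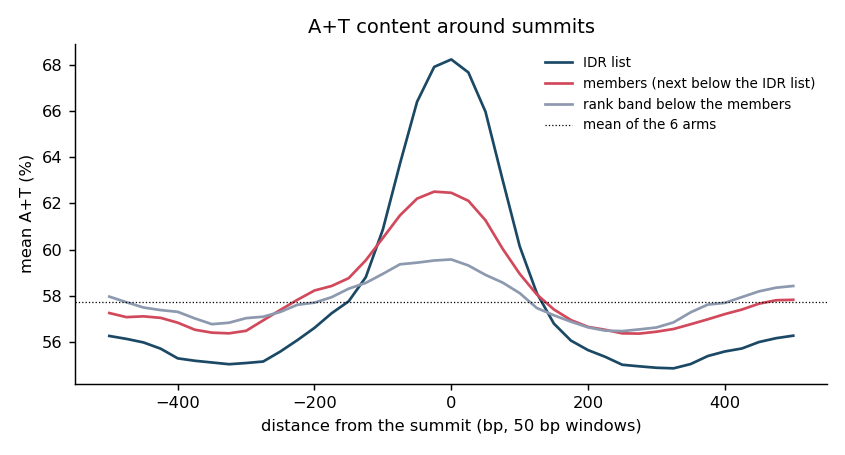
Mean A+T content in 50 bp windows against distance from the summit for the IDR list, the members and the rank band below, with the mean of the 6 arms as a dotted line. At the summit the members reach 62.5%, the IDR list 68.2% and the rank band below 59.6%.

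A+T differed among the members. It averaged 58.7% at promoters, 63.5% in introns, 65.1% in intergenic DNA and 45.3% in the 33 coding exons. From rank group 1 to rank group 10 of the members the AT-rich share went from 34.6% to 23.6% and the promoter share from 30.2% to 26.7%. The members within 430 bp of an IDR summit had an AT-rich share of 14.5% and those over 1000 bp away 29.5%. The shoulders were thus the less AT-rich of the members. Whether their replicate support was the broader depended on the measure. Inside the upper 7089 replicate peaks mean support was 50.8% within 430 bp of an IDR summit and 9.48% over 1000 bp away. By a replicate summit within 100 bp it was 16.6% and 8.24% in the upper 7089. In the upper 14178 that order turned, with 48.5% and 56.0%, and in whole lists it was 69.9% and 80.7%.

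Of 25 consensus strings sought on both strands in 200 bp, 9 (36%) were more frequent at member summits than in a window 500 bp to the right and 4 (16%) less frequent, by the exact McNemar test, p-values being adjusted over all 25. TATAAA, the TATA box string, was found in 31.2% of summit windows and 21.9% of flanks (exact McNemar adjusted p = 4.20e-35), and in 21.6% of all 200 bp windows tiled over the arms. A run of A (AAAAAAAA) was found in 19.2% and 13.1% (exact McNemar adjusted p = 3.93e-23), against 10.5% of tiles. These 2 strings kept their call in all 8 alternatives and were above the flank in 3 of 3 replicates' own bands. Both strings hold A and T only, and the part of the A+T content in these counts was not tested. TAATTA, also of A and T only, did not pass (13.7% and 13.2%, exact McNemar adjusted p = 0.567).

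Longer strings of core promoters and insulators were rarer, and their split between promoters and other members, which was not tested, varied. The DRE (TATCGATA), bound by Dref, was in 1.41% of members and 0.578% of flanks (exact McNemar adjusted p = 4.96e-06). It was in 83 promoter members (3.95%, flanks 1.00%) and in 17 others (0.341%, flanks 0.401%), so outside promoters it was not above the flank. TATAAA went the other way, with 26.9% of promoter members and 33.1% of others. GAGAGAG, the string of GAGA factor, was in 5.68% and 3.98% (exact McNemar adjusted p = 1.08e-05), and GGTCACAC, the M1BP string, in 1.20% and 0.635% (adjusted p = 0.00193). The M1BP string was in 3.38% of promoter members (flanks 1.38%) and 0.281% of others (flanks 0.321%). A spaced pair of CGATA, linked to BEAF-32, was in 18 members and 4 flanks (exact McNemar adjusted p = 0.0109). The others above the flank were GGTATTTT (2.14% and 1.37%), CATCNCTA (1.79% and 1.16%) and AGATAAG, the GATA string (3.30% and 2.41%), of which GGTATTTT was in 2.57% of promoter members and 1.96% of others and AGATAAG in 3.10% and 3.39%. CATCNCTA was in 3.38% of promoter members (flanks 1.48%) and 1.12% of others (flanks 1.02%).

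Calls on these rarer strings were less stable. Of the 8 alternatives, the DRE call held in 7, CATCNCTA in 6, GAGAGAG in 5, GGTATTTT and GATA in 4 and M1BP and BEAF-32 strings in 3. All 9 strings were more frequent at the summit than in the flank in 3 of 3 replicates' own bands. The strings less frequent than in flanks were TTTATG (21.9% and 23.7%), AGGTCA (3.33% and 4.50%), TGTGGTT (2.37% and 3.13%) and CATTCC (7.77% and 9.00%), and each lost its call in at least 4 alternatives. Without replicates 1, 2 and 3 the more frequent strings numbered 4, 4 and 6 and the less frequent 0, 1 and 0. The other 12 strings passed neither way.

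Compared with the IDR list, 5 strings (20%) were less frequent in the members and 4 (16%) more frequent by Fisher's exact test with adjustment over the 25. TATAAA was in 38.8% of IDR summits and 31.2% of members (Fisher's exact adjusted p = 2.06e-19). TAATTA, the homeodomain string, was in 18.6% and 13.7% (Fisher's exact adjusted p = 1.22e-14), and the Mef2 string in 3.47% and 2.33% (Fisher's exact adjusted p = 0.000296). CATCNCTA and TTTATG were also less frequent. CACACACA was in 6.63% of members and 3.65% of IDR summits (Fisher's exact adjusted p = 1.13e-14), GAGAGAG in 5.68% and 4.09% (adjusted p = 7.73e-05), and CACGTG and CATTCC were also more frequent. Of these 4 strings only GAGAGAG passed as more frequent at member summits than in their own flanks. CACACACA was in 6.43% of member flanks and 7.02% of IDR flanks. The part of the A+T content in these differences was not tested. The other 16 strings passed neither way, and without replicates 1, 2 and 3 the strings that differed numbered 5, 6 and 3.

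Members brought a further set of genes within reach of a summit. Of 11221 coding genes with no IDR summit within 500 bp of a start, 1420 (12.7%) had a member summit there, which raised the coding genes reached from 2724 of 13945 (19.5%) to 4144 (29.7%). A further 546 genes reached by a member already had an IDR summit. The count was 805 from ranks 7090 to 10633 and 703 from the later ranks, and 495, 687 and 632 when only members held by both other replicates were kept without replicates 1, 2 and 3. The 12.7% is the background against which the lists below are read, and no test was made of any list. A gene counted as reached even where another gene's start was nearer to the summit, and counting the nearest start only gave 1247. Of the genes named below, another start was nearer for RpL7-like (JhI-21), svp (CG44037), Jarid2 (Uch-L5), Pdk1 (lncRNA:CR45805) and Hsp67Ba (asRNA:CR43481).

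Patterning genes were reached often. In the Hox list 4 of 7 genes not reached by an IDR summit were reached by a member, among them Scr, Antp and abd-A, which are selector genes of segment identity. The Scr member, 129 bp upstream of the start on 3R, ranked 8738, 8737 and 14451 in the replicates, and the Antp member, 263 bp upstream, ranked 10288, 8552 and 13394. In the disc patterning list it was 12 of 28, led by ptc, the Hedgehog receptor, rho, a protease that activates EGF ligands, and sd, the partner of Yorkie. The ptc member, 158 bp upstream of the start on 2R, ranked 5475, 6101 and 6056 and lay 1177 bp from an IDR summit. In the Notch list it was 4 of 11, with the ligand regulator mib1, the receptor gene N and the ligand gene Ser.

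Lists of hormone and cell fate genes differed in the share reached, which was 12.7% over all coding genes with no IDR summit. In the ecdysone response list 5 of 13 (38.5%) were reached, with the nuclear receptor genes ftz-f1 and svp and the repressor gene Blimp-1. The ftz-f1 member, 85 bp upstream of the start, ranked 8794, 16440 and 4899, and the Blimp-1 member, 447 bp upstream, lay 201 bp from an IDR summit. For ecdysteroid synthesis and transport it was 1 of 9 (11.1%), the enzyme gene sad, a share near that of all coding genes. For cell death and autophagy it was 7 of 22 (31.8%), with Diap1, an inhibitor of caspases, Atg18b and Atg4a. For the cell cycle it was 6 of 22 (27.3%), with geminin, E2f2 and Rbf.

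Growth and housekeeping lists ranged widely. Among cytosolic ribosomal protein genes 10 of 26 (38.5%) were reached, the same share as in the ecdysone response list, led by RpL7-like, RpL38 and RpL15. Members reached 9 of 52 for mitochondrial ribosomal proteins, 9 of 68 for oxidative phosphorylation, 5 of 39 for translation factors, 4 of 40 for the proteasome and 2 of 16 for Mediator. For heat shock proteins it was 4 of 18, with Hsp23, Hsp67Ba and Hsp110, for insulin and TOR 5 of 15, with Lnk, Pdk1 and Thor, and for chromatin regulators 5 of 29, with Psc, mor and Jarid2. Neuronal genes gave 3 of 16, muscle genes 2 of 17 and glycolysis genes 1 of 5.

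Genes of secreted and sensory products were rarely reached by members. Members reached 1 of 122 cuticle protein genes, Cpr12A, and 0 of 226 chemoreceptor and odorant-binding protein genes, where a count of 0 allows up to 1.33%. For the glue and 71E secretion genes it was 0 of 18, which allows up to 16.7%. The rank band below alone reached 8 of these cuticle genes and 9 of the chemoreceptor and odorant-binding genes. Over all coding genes with no IDR summit that band alone reached 720 of 11221.

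The hosts with most intron members were long genes, and they are named here after their counts were seen. The 3224 intron members lay in 1290 host genes, of which 633 held 1 member and 728 (56.4%) also held an intronic IDR summit. The adhesion gene kirre, 394 kb long, held 25, the teneurin gene Ten-a 19, SKIP 18, and CG46467, mamo and the methylcytosine dioxygenase gene Tet 17 each. The nuclear receptor genes Eip75B and ftz-f1 each held 16. Length differed widely among these hosts, and ftz-f1, 50.7 kb long, had 31.6 members per 100 kb against 6.34 for kirre and 6.52 for Ten-a. The other hosts named ranged from 11.1 (SKIP) to 18.3 (Tet) per 100 kb, so they were not equal for length. Over whole arms the density of all members was 61.3 per Mb on X, where kirre lies. The count in kirre was close to that for its length, though it takes in intron members only and the arm density all members.

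Members were found on all 6 arms, and densities were not tested between bands. The density per Mb was 47.3 for 2R, the lowest of the large arms, and 61.3 for X, the highest, while 2L had 52.0, 3L 56.5 and 3R 50.7. Chromosome 4 held 15 members (11.1 per Mb). The replicates' own bands had 59.4 ± 1.16 per Mb on X and 18.8 ± 4.47 on chromosome 4 (SD, n = 3). On X the IDR list had 57.7 per Mb and the rank band below 59.3, and on 2L they had 54.1 and 54.8. On chromosome 4 they had 6.68 and 11.9.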

How the data were processed

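Peak calls from 3 biological replicates of 1 group were analysed; read depth is unknown. The authors deposited lists in the narrowPeak layout for dm6 and dm3, with a signal score for each peak and its −log10 q-value, following the order of the deposited columns; the IDR threshold, caller and aligner were not given in the sources used here. Replicates are numbered as biological replicates in the labels, and nothing says more about their origin, so spreads may in part be technical. Columns of other samples numbered 0. The test unit was the summit, taken as the start plus the offset that the file gives.

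The pooled list was ordered by signal and ranks 7090 to 14178 were taken. The members, gene lists and strings were chosen with earlier results of these data known, and the cuticle and glue lists were narrowed after a first run because their name patterns took in other genes. Genes came from Ensembl release 115 (BDGP6.54), 18164 genes on 6 arms, and each summit was put in the first class that applied, promoter before exon classes (UTRs, then coding, then other exons), and introns before intergenic DNA. Shares were compared with two-sided Fisher's exact tests, adjusted by Benjamini-Hochberg over 22 tests at a threshold of 0.05, and repeated in each replicate's own ranks as mean and SD. Strings were tested by the exact McNemar test. Intervals are 95% exact binomial and cover counting error only. For a count of 0 the limit is that of 3 counts. Genes named are the 12 highest-signal promoter members, 5 intron and 5 intergenic members held in the upper 7089 of all 3 replicates, up to 3 genes per list by rank, every string and every arm. Sequences are those of the 2 best of each class and of the best member with a more frequent string, for a limited number of strings, which adds pxb and alt. Members on arm 2R or in UTRs were left out of the sequences, so a better-ranked named member may not be shown. Other genes are said to be chosen after their values were seen. Scripts (Python 3.11.15, scipy 1.17.1) were tested on simulated summits placed on the real genome.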

Additional observations from a re-analysis of the deposited data

How the results depend on the processing

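Across 21 results and 176 alternatives, 117 were labelled the same, 20 no longer passed the threshold, 16 reversed and 23 moved. For shares, the same meant that direction and call were kept. For counts it allowed some change: strings above the flank went from 9 to 6 without replicate 3, and genes reached from 1420 to 1127 within 200 bp. The A+T share, and the promoter, upstream and divergent shares against the IDR list, kept direction and call in every alternative run, though not their size: with at least 75% A+T the AT-rich differences were -11.2 (IDR list) and 3.94 (band below), in 200 bp windows -12.9 and 5.35, and with a 200 bp promoter window the promoter difference was -3.27 and the divergent one -18.0, both against the IDR list. No paired analysis was possible because there is 1 group, so replicate numbers pair no samples across groups; bands were compared within each replicate's own list in the report. Replicates left out mean that only summits held in the upper 14178 of both other replicates were kept, which by construction leaves few rows of the band below, most of them beside IDR summits. Against that band, differences in percentage points ran from -2.09 to -1.40 for promoters, -0.129 to 2.71 for introns, 1.04 to 2.42 for intergenic DNA, -0.609 to -0.00611 for coding exons, -2.07 to 7.39 for upstream, -3.14 to -2.23 for divergent and -27.2 to -24.4 for nearness to an IDR summit. Among these only the nearness differences passed. Against the IDR list the differences ran from 1.45 to 4.40 for introns, 1.18 to 4.39 for intergenic DNA, 0.0642 to 0.178 for coding exons and -1.25 to 1.42 for nearness. With that window calls ended at 0.0987 (introns) and 1.42 (intergenic) against the IDR list and -1.26 (introns) against the band below, and with 1000 bp the upstream one was 2.95. Ranks 7090 to 10633 gave -1.80 for introns against the band below and 0.183 for coding exons against the IDR list, and the later ranks gave 1.33 for upstream against the band below. Strings above the flank numbered 5 in the later ranks and 4 to 6 without a replicate; strings below numbered 2 in the earlier and in the later ranks, 0 to 1 without a replicate, 0 in 100 bp windows and 2 with a 1000 bp flank; strings that differed from the IDR list numbered 3 to 6 without a replicate. Support was 65.4% in the upper 14178, 90.2% in whole lists, 9.79% by summit, 22.0% in the earlier and 7.12% in the later ranks, and 10.2% without members within one peak width of an IDR summit, an alternative added after seeing the data. Genes reached numbered 805 and 703 in the earlier and later ranks and 495 to 687 without a replicate. The causes of these changes were not tested.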
